A study of Mus musculus with 6 samples.

Results

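Mitochondrial ribosomal protein genes are described here in the hind limb muscle of mice that lack the laminin alpha 2 chain and of wild type mice. They were taken as all array probe sets with exactly 1 gene symbol that starts with Mrpl or Mrps followed by a number, which gave 156 probe sets and 76 genes, 47 of the large and 29 of the small subunit by symbol. Each gene was read by its probe set of highest mean signal. The array names 13113 genes that passed the filter on low signal, and all 76 members were among them. The RefSeq table of GRCm38.p6 lists 78 such genes, and the other 2, Mrpl30 and Mrpl53, were read only by probe sets that carry another symbol as well, so they were left out. The study has 3 wild type mice and 3 laminin alpha 2 chain deficient mice, all 4 weeks old. All hind limb muscle of a mouse was isolated on its own and its RNA was read on 1 Affymetrix array. The labels name neither the Lama2 allele nor the strain, and laminin alpha 2 is the chain that joins the muscle fibre to its basement membrane.

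The mitochondrial ribosome translates the few proteins that mitochondrial DNA encodes, all of them core subunits of the respiratory chain and of ATP synthase. Its own proteins are encoded in the nucleus, made in the cytosol and imported, and they assemble on 2 ribosomal RNAs transcribed from mitochondrial DNA. Many have a counterpart in the bacterial ribosome, and others were gained by mitochondria. Inherited defects of members such as MRPL3, MRPL44, MRPS16 and MRPS22 cause respiratory chain disease in humans, often of heart and muscle.

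Lama2 itself, as a check of the labels, read 428.7, 415.6 and 326.2 in wild type and 82.0, 31.1 and 140.4 in deficient muscle. Precision is limited by there being 3 arrays per group, and array medians lay between 20 and 26.1 signal units. Muscle fibre markers such as Ckm and Acta1 were bright in all libraries, with a summed signal of 10 markers from 112654 to 119801 in wild type and from 86214 to 116219 in deficient muscle, where the low value is that of deficient replicate 1. Wild type replicates 1 and 2 carried hair follicle transcripts, with summed signals of 2173 and 975 over 8 markers against 110 in wild type replicate 3 and 76.4 to 85.9 in the deficient libraries. The Y-linked transcript Eif2s3y was at 10.7 in wild type replicate 3 and 9.1 in deficient replicate 3, and from 414.6 to 573.7 in the other 4 libraries.

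Most mitochondrial ribosomal protein genes had a lower signal in deficient muscle, by a modest amount. The log2 fold change, taken on log2(signal + 16) as the deficient mean less the wild type mean, was negative in 73 of 76 members and in 47.4% of all genes tested. Its median was -0.43 over the members, a ratio of 0.740, and 0.024 over all genes tested. The quartiles of the members were -0.54 and -0.26. In 46 members (60.5%) every deficient library read below every wild type library, as in 12.4% of all genes tested, and in 1 member the opposite held, as in 12.3%. These sets of genes were described by counts, with no test over the list.

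Gene by gene, 4 of the 76 members fell, 0 rose and 72 did not pass limma's test at a Benjamini-Hochberg adjusted p under 0.05 over all genes. The share that fell was 5.26% of the members, while 2.76% of all genes tested were called, 1.46% lower and 1.30% higher. At an unadjusted p under 0.05, 33 members were lower and 1 was higher, or 43.4% lower where all genes tested gave 9.49% lower and 9.39% higher. The 4 that fell were Mrps36, Mrpl42, Mrps21 and Mrpl14. The median standard error of a member was 0.20 on the log2 scale, so a member at the median fold change of -0.43 lay close to 2 standard errors below 0. In bulk tissue, fewer cells of a type and less RNA per cell cannot be told apart.

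**Figure D1:**
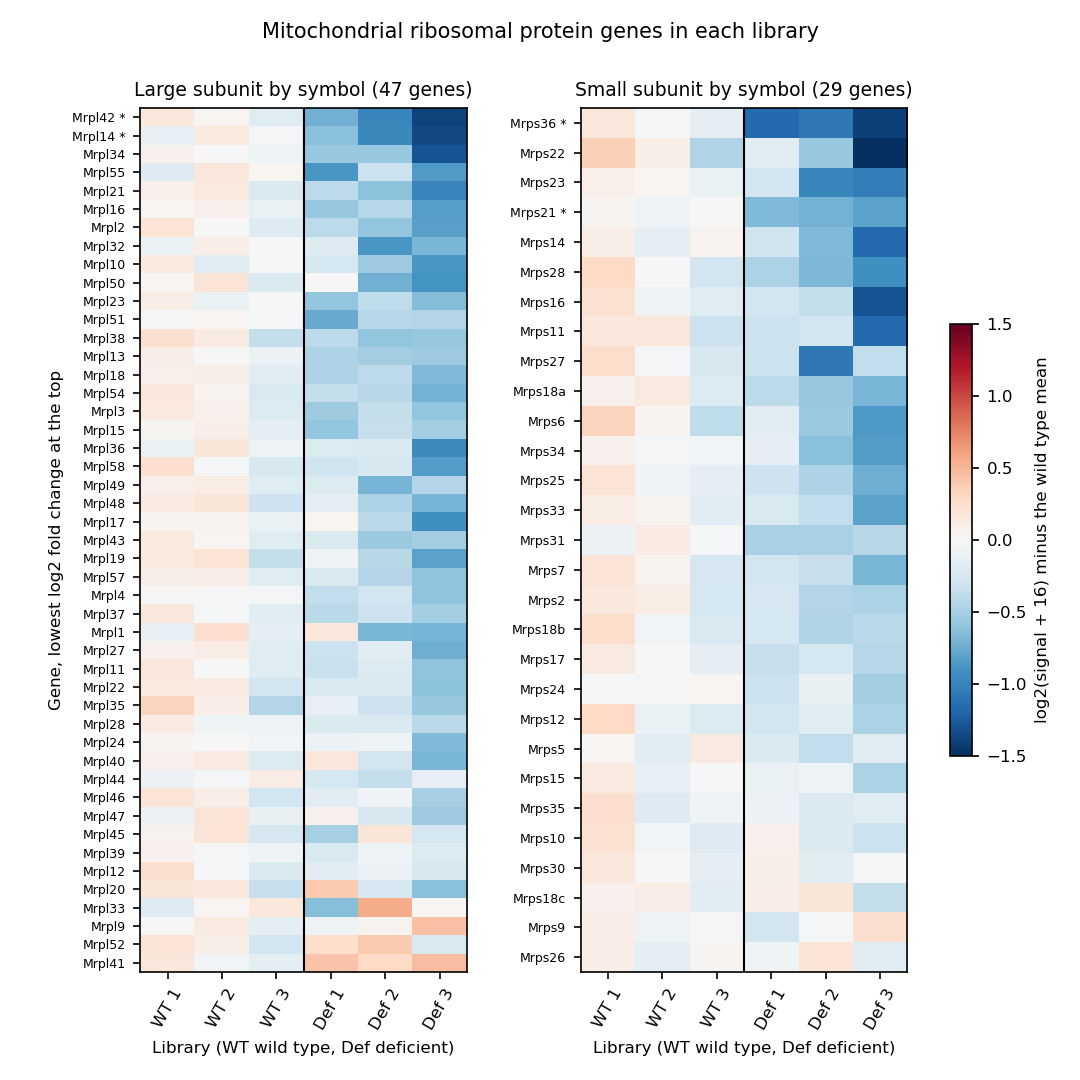
Colour gives the log2(signal + 16) of each of the 76 members in each library minus the wild type mean of that gene. By symbol, the large subunit is on the left and the small subunit on the right, with the lowest fold change at the top. Asterisks mark the 4 genes that fell at an adjusted p under 0.05; 73 members had a negative fold change, and deficient replicate 3 read lowest of the 6 libraries in 55 members.

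Mrps36 had the largest fall. Its product was first described with the small subunit and is now known as a component of the 2-oxoglutarate dehydrogenase complex of the tricarboxylic acid cycle. It read 1176.5, 1030.3 and 940.6 in the wild type libraries and 457.1, 486.6 and 385.0 in the deficient libraries. The groups did not overlap, and each deficient library lay far below the lowest wild type library. From 1049 ± 119 to 443 ± 52.3 (SD, n = 3 per group) the log2 fold change was -1.22 (SE 0.18, adjusted p = 0.0104 by limma). RefSeq lists 3 pseudogenes of Mrps36, and whether its probe set also binds them was not tested. Over the other 75 members the median log2 fold change was -0.43 as well, and 3 of them fell.

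Mrpl42, a large subunit protein with no bacterial counterpart, had the brightest probe set of the members. Its wild type libraries read 4982.8, 4539.2 and 3925.7 and its deficient libraries 2699.4, 2248.9 and 1697.9, without overlap. It fell from 4483 ± 531 to 2215 ± 502 (SD, n = 3 per group), a log2 fold change of -1.03 (SE 0.19, adjusted p = 0.0253 by limma). The other probe set of Mrpl42 did not pass the filter, with signals of 0.4 to 8.9. Mrpl14, which sits on the face of the large subunit where the assembly factor Malsu1 binds, read 592.9, 718.1 and 641.9 in wild type and 413.9, 325.3 and 245.2 in deficient muscle. It fell by 49.6%, with a log2 fold change of -0.98 (SE 0.21, adjusted p = 0.0450 by limma), and it has 1 probe set. Mrps21, a small subunit protein of the platform, was the tightest of the 4 that fell, with 1554.6, 1444.9 and 1516.3 in wild type and 945.7, 910.5 and 858.1 in deficient muscle. It fell by 39.9%, with a log2 fold change of -0.72 (SE 0.15, adjusted p = 0.0362 by limma), while its second, dim probe set, at 16.2 to 39.4, had a log2 fold change of 0.17.

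The number that fell depended on single libraries. Left out in turn, wild type replicates 1, 2 and 3 gave 0, 0 and 2 genes, and deficient replicates 1, 2 and 3 gave 4, 1 and 4; the 4 left by the first of these held 3 of the same genes and Mrps23. Over all genes tested the share called was 0.499%, 0.548% and 1.67% in the first 3 of these fits and 1.16%, 0.611% and 5.04% in the others, against 2.76% with every library. Mrps36 had adjusted p values of 0.0711 and 0.0585 when wild type replicates 1 and 2 were left out in turn (0.00126 to 0.378 across the alternatives), and it fell in the other 4 such fits. Mrpl42 had 0.123 and 0.104 when the same wild type libraries were left out and 0.0883 when deficient replicate 2 was (0.00213 to 0.513 across the alternatives). Mrpl14 was at 0.136, 0.178 and 0.106 without wild type replicates 1, 2 and 3 and at 0.142 without deficient replicate 2 (0.0102 to 0.515). Mrps21 was at 0.152, 0.138 and 0.0973 without wild type replicates 1, 2 and 3, and at 0.0612 and 0.110 without deficient replicates 1 and 2 (0.0101 to 0.515). Mrps21 and Mrpl14 also missed the threshold under median centring (adjusted p = 0.0587 and 0.0815), Mrpl14 without the filter (0.0580), Mrps21 with the mean of its probe sets (a log2 fold change of -0.28, adjusted p = 0.445), and all but Mrps36 without limma's intensity trend (0.0665 to 0.0847). When libraries with and without Y-linked transcripts formed blocks, 17 members fell and 0 rose, among them the same 4, while 4.65% of all genes tested were called lower and 8.85% in either direction. Within the 4 libraries that carry Y-linked transcripts the median over the members was -0.42, with 71 of 76 negative, and between replicate 3 of each group it was -0.44, also with 71 of 76 negative; these were values with no test.

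**Figure D2:**
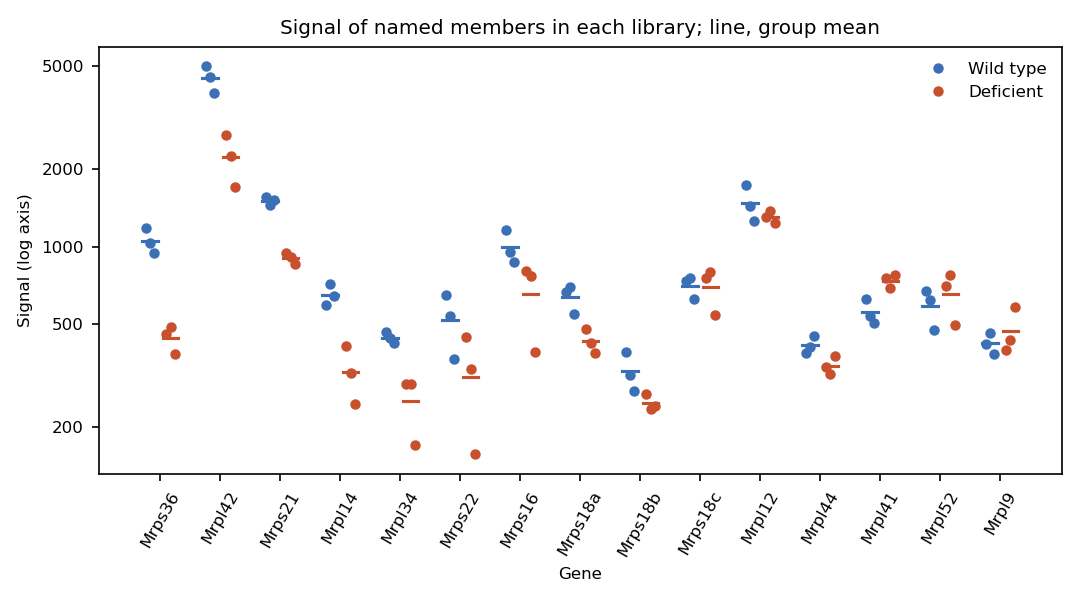
Points give the signal of each library for 15 named members on a log axis, wild type in blue and deficient in red, and lines give the group means. Mrps36, Mrpl42, Mrps21 and Mrpl14 show no overlap between groups, Mrps22 and Mrps18c overlap, and Mrpl41 is higher in all 3 deficient libraries.

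The promoters of the 4 genes that fell are shown with those of Mrpl22 and Mrpl32, which hold matches to the factors best known for nuclear genes of mitochondria. NRF1 and GABPA are such activators, YY1 acts with them, and the ERR receptors bind a site of their own. Windows ran from 250 bases before to 50 after the start of the gene and came from the RefSeq promoter table of GRCm38.p6, which matched 67 of the 76 members. The motifs searched on both strands, with no mismatch, were GCATGCG for NRF1, CCGGAAG for GABPA, AAGATGG for YY1 and AAGGTCA for ERR. An NRF1 match can overlap its own reverse match by all but a base. Only bases upstream of the start are printed, 5′ to 3′ on the strand of the gene, and capitals mark matches. The nearest 150 bases are shown, or 250 for Mrps21. Mrpl32 also holds a YY1 match at -241, outside the bases printed. Neither Mrpl22 nor Mrpl32 passed, with log2 fold changes of -0.35 (adjusted p = 0.376 by limma) and -0.59 (adjusted p = 0.165).
Mrps36 (chr13:100744660-100744809, minus strand): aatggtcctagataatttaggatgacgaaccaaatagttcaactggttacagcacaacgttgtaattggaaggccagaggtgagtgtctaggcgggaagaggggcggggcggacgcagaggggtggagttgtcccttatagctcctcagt
Mrpl42 (chr10:95501950-95502099, minus strand): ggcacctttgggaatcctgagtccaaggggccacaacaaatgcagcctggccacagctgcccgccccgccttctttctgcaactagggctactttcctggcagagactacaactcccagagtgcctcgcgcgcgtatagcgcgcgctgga
Mrpl14 (chr17:45686199-45686348, plus strand): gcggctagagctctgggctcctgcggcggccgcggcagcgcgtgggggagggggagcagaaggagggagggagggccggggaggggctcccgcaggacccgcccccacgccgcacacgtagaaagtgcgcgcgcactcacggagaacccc
Mrps21 (chr3:95871515-95871764, minus strand): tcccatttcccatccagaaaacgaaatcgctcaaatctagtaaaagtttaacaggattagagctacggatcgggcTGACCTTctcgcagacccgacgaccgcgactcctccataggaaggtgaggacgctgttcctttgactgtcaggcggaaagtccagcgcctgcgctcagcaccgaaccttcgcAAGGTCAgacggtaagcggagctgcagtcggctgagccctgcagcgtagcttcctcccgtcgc
Mrpl22 (chr11:58171514-58171663, plus strand): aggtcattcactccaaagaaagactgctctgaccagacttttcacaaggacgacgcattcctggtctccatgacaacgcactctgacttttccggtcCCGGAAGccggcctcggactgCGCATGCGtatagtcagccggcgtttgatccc
Mrpl32 (chr13:14613038-14613187, minus strand): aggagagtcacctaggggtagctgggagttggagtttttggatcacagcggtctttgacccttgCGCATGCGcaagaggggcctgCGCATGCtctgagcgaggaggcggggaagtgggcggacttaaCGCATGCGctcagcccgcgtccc

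A GABPA match was found in 24 of the 67 member promoters (35.8%), and in 9.12% of the 27025 promoters of the table and 16.6% of those of genes tested. NRF1 matches were found in 8 (11.9%), against 3.64% of the table and 6.22% of genes tested, and YY1 matches in 13 (19.4%), against 6.48% and 7.02%. An ERR match was found in 4 (5.97%), against 4.66% and 3.24%. In 29 of the 67 member promoters none of the motifs was found, and in 7468 of the 10576 promoters of genes tested. Respiratory chain promoters held GABPA in 25.8% and NRF1 in 14.5%, and those of cytosolic ribosomal proteins held GABPA in 48.6% and NRF1 in 8.11%. Of the genes that fell, Mrps21 held 2 ERR matches upstream and a GABPA match after the start, Mrpl42 a YY1 match after the start, and the windows of Mrps36 and Mrpl14 held none of these letters. The median log2 fold change was -0.46 over the 28 members with a GABPA or NRF1 match and -0.39 over the 39 without. Over the 8 members with an NRF1 match, 4 of which also held a GABPA match, it was -0.36. A match describes letters in the window and shows no binding.

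By symbol, 2 of 47 large subunit genes fell (4.26%, beside 1.46% of all genes tested called lower), 0 rose and 45 did not pass. The median log2 fold change of the 47 was -0.43, with 44 negative values by the brightest probe sets. The stalk, which recruits the translation factors, had 3 members here. Mrpl10 read 362.7, 291.0 and 328.3 in wild type and 269.1, 218.1 and 170.8 in deficient muscle, a log2 fold change of -0.56 (adjusted p = 0.186 by limma). Mrpl11 was at -0.38 (adjusted p = 0.297). Mrpl12, the stalk protein that also binds the mitochondrial RNA polymerase, read 1732.2, 1432.9 and 1255.8 in wild type and 1300.9, 1378.1 and 1236.4 in deficient muscle. Its groups overlapped, and its log2 fold change was -0.16 (adjusted p = 0.647 by limma), or 0.054 with 1 wild type library. The 3 stalk genes thus ran from -0.56 to -0.16, a span that was not tested.

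Around the exit of the peptide tunnel, where new proteins meet the inner membrane, 6 genes were read, Mrpl17, Mrpl22, Mrpl23, Mrpl24, Mrpl45 and Mrpl47. All 6 log2 fold changes were negative, from -0.54 in Mrpl23 to -0.19 in Mrpl45, and none passed, with 1 at an unadjusted p under 0.05. This held for the brightest probe sets. Of the 3 probe sets of Mrpl17 only the brightest was negative, with the highest at 0.17, and Mrpl47 had a probe set at 0.026. Mrpl23 read 1422.4, 1232.4 and 1317.4 in wild type and 873.9, 1009.3 and 835.6 in deficient muscle, without overlap (adjusted p = 0.103 by limma). In the central protuberance, which faces the small subunit, Mrpl38, Mrpl40, Mrpl46 and Mrpl48 ran from -0.52 to -0.24 with 0 called. The groups of Mrpl38 did not overlap in its brightest probe set. Of its 3 probe sets only that one was negative, with the highest at 0.33. Mrpl48 had a probe set at 0.14. Mrpl32 to Mrpl36 are short proteins shared with bacteria. Among them Mrpl34 had the fourth lowest fold change of all members, at 465.0, 441.8 and 421.8 in wild type and 294.2, 292.5 and 170.2 in deficient muscle. Its groups did not overlap, yet its log2 fold change of -0.81 (SE 0.23) did not pass (adjusted p = 0.0940 by limma). Mrpl33 was the most scattered of the 5, with 456.3, 1066.6 and 731.7 in deficient muscle and 628.3, 733.3 and 804.7 in wild type.

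Other large subunit genes stood near the threshold. Mrpl51 had the smallest adjusted p among the members that did not pass, 0.0895, with 2586.2, 2650.8 and 2572.2 in wild type and 1537.2, 1936.0 and 1911.8 in deficient muscle. The wild type libraries agreed within 41.9 (SD, n = 3), and its log2 fold change was -0.54. Mrpl16, a protein near the peptidyl transferase centre, was at -0.61 (adjusted p = 0.0991) and Mrpl13 at -0.51 (adjusted p = 0.107), both without overlap. Mrpl44 encodes a protein needed for assembly of the large subunit. It read 387.6, 407.4 and 449.0 in wild type and 341.6, 320.2 and 377.2 in deficient muscle, a log2 fold change of -0.25 (adjusted p = 0.468 by limma), while its other 3 probe sets were at -0.17, -0.57 and -0.86. Mrpl49, one of the 3 dimmest members, read 187.6, 192.4 and 154.9 in wild type and 152.3, 103.8 and 126.5 in deficient muscle, a log2 fold change of -0.45 (adjusted p = 0.273).

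The 3 members with a positive log2 fold change were all of the large subunit. Mrpl41, a large subunit protein with no bacterial counterpart, read 628.7, 540.3 and 507.1 in wild type and 753.3, 690.3 and 773.0 in deficient muscle. Every deficient library was above every wild type library, the opposite of the other 46 members without overlap, with a log2 fold change of 0.40 (SE 0.17, adjusted p = 0.237 by limma). Its second bright probe set was at 636.2, 614.3 and 511.8 in wild type and 635.4, 545.3 and 636.5 in deficient muscle, where the groups overlapped. Mrpl52 was at 0.14 (adjusted p = 0.775) and Mrpl9 at 0.14 (adjusted p = 0.754), both with overlapping groups. The other probe sets of Mrpl52 that passed the filter were at -0.022 and -0.091, and a dim one that did not was at 0.29. Mrpl9 turned to -0.017 without deficient replicate 3, where it read 581.0 against 397.9 and 436.5 in the other deficient libraries.

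By symbol, 2 of 29 small subunit genes fell (6.90%, beside 1.46% of all genes tested called lower), 0 rose and 27 did not pass. The median log2 fold change of the 29 was -0.46, with 29 negative values. This held for the brightest probe sets. Other probe sets of Mrps9, Mrps10 and Mrps15 reached 0.56, 0.47 and 0.85, and those of Mrps5, Mrps21 and Mrps23 reached 0.076, 0.17 and 0.17. All probe sets of the remaining small subunit genes were negative. The 29 genes hold Mrps36, which fell and whose product is a component of the 2-oxoglutarate dehydrogenase complex. They also hold Mrps18a and Mrps30, whose products are found in the large subunit. Of 5 head proteins, which hold the messenger RNA and the transfer RNAs, Mrps14 was at -0.71 (adjusted p = 0.124), with 1591.5, 1358.2 and 1552.2 in wild type and 1212.1, 942.1 and 658.4 in deficient muscle. The others were Mrps7 at -0.44, Mrps24 at -0.32, Mrps10 at -0.16 and Mrps9 at -0.020. On the platform, Mrps21 fell and the other 4 ran from -0.59 in Mrps11 to -0.026 in Mrps18c with 0 called.

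Members of the body included Mrps16, a gene of human respiratory chain disease. Mrps16 read 1157.6, 949.7 and 868.2 in wild type and 801.3, 767.8 and 391.6 in deficient muscle. No values overlapped, and deficient replicate 3 lay far below the rest; the log2 fold change was -0.65 (SE 0.27, adjusted p = 0.233 by limma). Mrps12, a protein of the decoding centre, read 663.8, 498.5 and 460.9 in wild type and 434.9, 470.2 and 381.2 in deficient muscle, with overlap, at -0.31 (adjusted p = 0.424). Mrps5, dim at 194.1, 167.5 and 209.6 in wild type and 161.6, 143.6 and 165.1 in deficient muscle, was at -0.25 (adjusted p = 0.488). Mrps22, a protein gained by mitochondria, had the second lowest fold change of the small subunit by symbol and the largest standard error of the members named. It read 650.0, 538.4 and 366.1 in wild type and 447.0, 334.3 and 156.7 in deficient muscle. The groups overlapped, and the log2 fold change of -0.78 (SE 0.35) did not pass (adjusted p = 0.273 by limma). Mrps27, the dimmest member, read 164.3, 131.3 and 111.1 in wild type and 104.3, 55.2 and 100.4 in deficient muscle, without overlap, at -0.59 (adjusted p = 0.248). Mrps23 was at -0.77 (adjusted p = 0.107) and Mrps28 at -0.69 (adjusted p = 0.102), both without overlap.

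The Mrps18 family shows how 3 related genes differed in their log2 fold changes. Mrps18c is the form closest to the bacterial protein, Mrps18b is a small subunit protein of its own, and Mrps18a is found in the large subunit despite its symbol, as is Mrps30. Mrps18a read 664.7, 700.3 and 549.3 in wild type and 480.2, 422.8 and 388.1 in deficient muscle, a log2 fold change of -0.55 (adjusted p = 0.138 by limma). Mrps18b read 392.2, 316.9 and 276.4 and then 268.7, 234.4 and 241.7, at -0.37 (adjusted p = 0.331). Mrps18c read 734.3, 757.1 and 625.3 and then 757.4, 797.6 and 544.6, at -0.026 (adjusted p = 0.963). Groups of the first and of Mrps18b did not overlap and those of Mrps18c did, and the difference between the 3 genes was not tested. The sign of Mrps18c turned when wild type replicate 1 (0.005), wild type replicate 2 (0.027) or deficient replicate 3 (0.14) was left out. Mrps30 was at -0.033 (adjusted p = 0.947).

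Grouped by origin, the 45 members with a bacterial counterpart had a median log2 fold change of -0.43, with 2 called lower (4.44%). The 30 without one had a median of -0.44, with 1 called lower (3.33%). Mrps36 was placed in neither group. Split by mean signal, the dimmest 25 members had a median of -0.43, the middle 25 of -0.43 and the brightest 26 of -0.47. Of these, 0, 1 and 3 fell. Over all genes tested, 1.46% were called lower. Where a gene had several probe sets, 24 of 42 genes had all of them moving in the direction of the brightest and 18 did not. Of the 80 other probe sets, 57 passed the filter, 40 of them with a negative log2 fold change and a median of -0.17, and 23 did not pass it, 12 of them negative.

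Deficient libraries were not alike in these genes. The median deviation of the members from the wild type mean was -0.27, -0.36 and -0.61 on the log2 scale in deficient replicates 1, 2 and 3, and 0.11, 0.028 and -0.16 in wild type replicates 1, 2 and 3. Deficient replicate 3 read lowest in its group in 56 of 76 members, or 73.7%, where this held for 40.2% of all genes tested. Wild type replicate 3 read lowest in its group in 59 members, or 77.6%, where this held for 35.3% of all genes tested. These 2 libraries are also those without Y-linked transcripts. Without wild type replicates 1 and 2, the libraries with hair follicle transcripts, 64 of 76 log2 fold changes were negative, the median was -0.27 and 0 members passed; that fit has 1 wild type library, which is assumed to vary like the deficient ones.

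**Figure D3:**
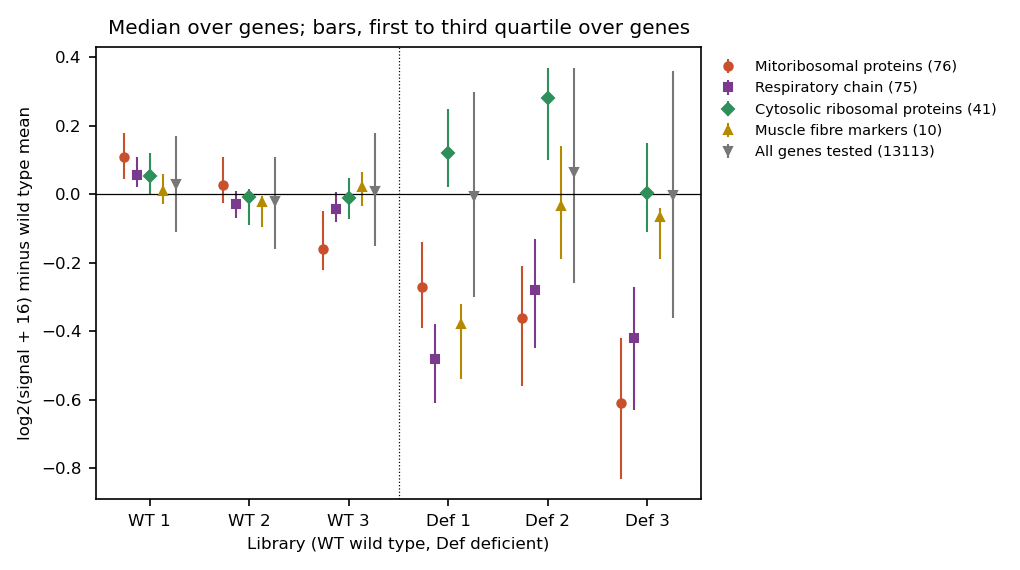
Markers give the median over genes of log2(signal + 16) minus the wild type mean in each library, and bars the interquartile range over genes, for 5 sets of genes. Mitochondrial ribosomal proteins are lowest in deficient replicate 3 (-0.61), respiratory chain genes in deficient replicate 1 (-0.48), and the medians of all genes tested stay between -0.020 and 0.064.

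The order differed for nuclear genes of the respiratory chain, the complexes that mitochondrial translation supplies. Their median deviation was -0.48, -0.28 and -0.42 in deficient replicates 1, 2 and 3, and deficient replicate 1 was lowest in its group in 48 of 75 of them but in 8 of 76 mitochondrial ribosomal protein genes. Muscle fibre markers had the same lowest library, with medians of -0.38, -0.035 and -0.067. Of the 75 respiratory chain genes 9 fell, 0 rose and 66 did not pass, their median log2 fold change was -0.38, and in 61 (81.3%) every deficient library was below every wild type library. Cox7a1, a cytochrome c oxidase subunit of heart and muscle, fell, with a log2 fold change of -0.87 (adjusted p = 0.0119 by limma), as did the complex I gene Ndufc1, with -0.88 (adjusted p = 0.0142). Both missed the threshold when wild type replicate 1 (0.0756 and 0.0817) or wild type replicate 2 (0.0691 and 0.0712) was left out. Ndufs5, another complex I gene, read 4654.9, 4180.6 and 3658.0 in wild type and 2508.3, 2477.8 and 2280.4 in deficient muscle and fell, with a log2 fold change of -0.77 (adjusted p = 0.0262 by limma). It missed the threshold when wild type replicate 1 (0.131) or 2 (0.119) or deficient replicate 1 (0.0523) or 2 (0.0858) was left out. The median standard error was 0.14 for respiratory chain genes and 0.20 for the members.

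Cytosolic ribosomal protein genes were on the other side of 0. Of 41 tested, 34 had a positive log2 fold change, 0 were called in either direction by limma, and the median was 0.13. Higher at an unadjusted p under 0.05 were 3 and lower 0, beside 9.39% and 9.49% of all genes tested. Rpsa read 4389.8, 3684.6 and 3788.0 in wild type and 4766.7, 5718.7 and 5225.3 in deficient muscle, without overlap, at 0.40 (adjusted p = 0.150). Rps25 was at 0.62 (adjusted p = 0.136) and Rps19 at 0.48 (adjusted p = 0.168), both without overlap. The probe set of Rps25 was dim, at 77.8 to 119.6 in wild type and 153.2 to 167.8 in deficient muscle. The median signal of the list was 4705.

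Proteins that build and drive the mitochondrial ribosome were read beside it. Of 4 mitochondrial ribosomal proteins with other names, 0 were called and all 4 log2 fold changes were negative, with Chchd1 at -0.55 (adjusted p = 0.237), Dap3 at -0.29 (adjusted p = 0.450) and Ptcd3 at -0.27 (adjusted p = 0.496). Of 27 assembly factors 0 were called by limma, 23 were negative, and the median was -0.11. Lower at an unadjusted p under 0.05 were 2 (7.41%) and higher 0, beside 9.49% and 9.39% of all genes tested. Malsu1, which binds Mrpl14 during assembly, read 1252.9, 1072.8 and 1014.1 in wild type and 756.8, 664.2 and 521.8 in deficient muscle. Its groups did not overlap, and its log2 fold change was -0.78 (SE 0.19, adjusted p = 0.0628 by limma). The GTPase gene Mtg2 was at -0.56 (adjusted p = 0.250) and the helicase gene Ddx28 at -0.43 (adjusted p = 0.279).

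Translation factors numbered 13, of which 0 were called by limma and 12 were negative, with a median of -0.24. Lower at an unadjusted p under 0.05 were 2 (15.4%) and higher 0, beside 9.49% and 9.39% of all genes tested. Gfm2, which splits the ribosome after termination, read 203.4, 289.1 and 212.8 in wild type and 142.9, 123.2 and 126.6 in deficient muscle, without overlap. Its log2 fold change was -0.76 (SE 0.20, adjusted p = 0.0766 by limma). Gfm1, the elongation factor of translocation, was at -0.55 (adjusted p = 0.148) and the initiation factor gene Mtif2 at -0.27 (adjusted p = 0.421). Of 21 genes listed for the loading of mitochondrial transfer RNAs, 0 were called by limma and 15 were negative, with a median of -0.23. At an unadjusted p under 0.05, 4 were lower (19.0%) and 0 higher. The list holds aminoacyl-tRNA synthetases, among them Gars and Kars, which also serve the cytosol, and the amidotransferase genes Gatb, Gatc and Qrsl1. Qrsl1 was among the 4 lower genes. Sars2 was at -0.83 (adjusted p = 0.0972), Yars2 at -0.84 (adjusted p = 0.152) and Fars2 at -0.55 (adjusted p = 0.167).

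**Figure D4:**
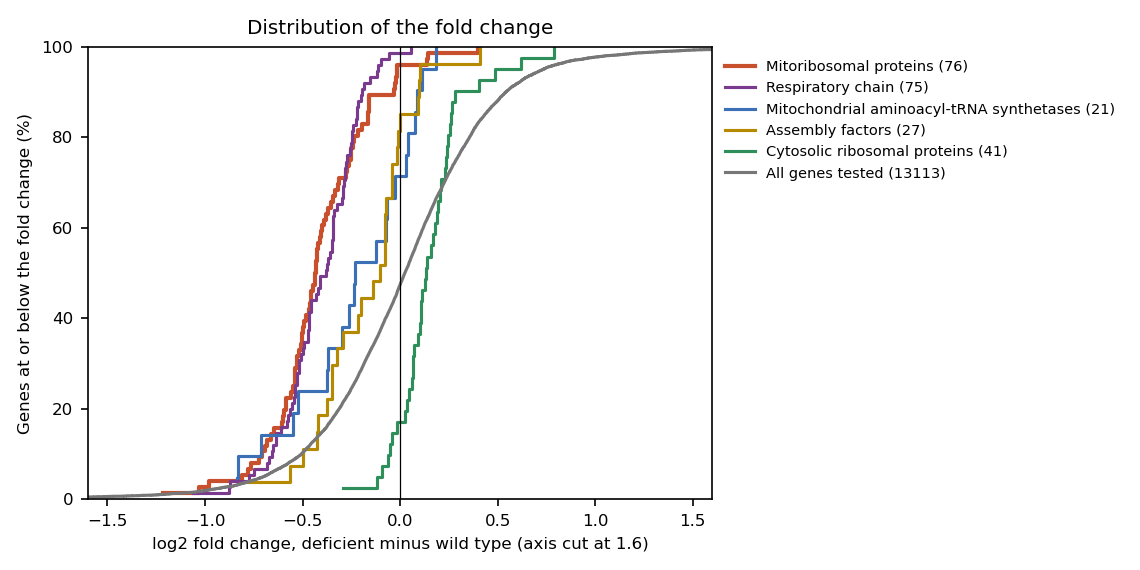
Lines give the percentage of genes at or below each log2 fold change (deficient minus wild type) for 6 sets of genes. At 0 the mitochondrial ribosomal proteins stand at 96.1%, assembly factors at 85.2%, all genes tested at 47.4% and cytosolic ribosomal proteins at 17.1%. The list of mitochondrial aminoacyl-tRNA synthetases, which also holds amidotransferase genes, stands at 71.4%.

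Marker lists of other cells and the RNA controls were read in the same libraries. All 10 macrophage markers had a positive log2 fold change, but 1 of them, Mpeg1, was called and the groups overlapped in 7. Their summed signals ran from 2744 to 3928 in wild type and from 3803 to 10425 in deficient muscle, and the lowest deficient value was that of replicate 3. Fibroblast markers ran from 17144 to 26501 in wild type and from 21427 to 28591 in deficient muscle over 7 genes, with overlap and 0 called. Brown adipocyte markers went both ways, 5 of 8 lower and 3 higher: Ucp1 (-4.16) and Cidea (-1.34) fell and Dio2 (1.48) rose. Their sums, from 8185 to 10198 in wild type and from 5522 to 6954 in deficient muscle, were mostly the signal of Cox8b, which was at -0.44 (adjusted p = 0.111 by limma). Markers of T, B and NK cells were lower in 7 of 7, but they were dim. Only 4 passed the filter, with a median signal of 43.0 and 0 called. The sums over all 7 ran from 231 to 274 in wild type and from 154 to 186 in deficient muscle, without overlap. Sums of white adipocyte, endothelial and erythroid markers overlapped between the groups. Hair follicle and muscle fibre sums are given above, and no marker was at 0 in all libraries. For the actin control, the ratio of 5 prime to 3 prime signal was 1.15, 1.05 and 1.04 in wild type and 0.819, 0.510 and 0.573 in deficient libraries, and those of 3 other controls overlapped. The part of these differences in the lower signal of the members was not tested.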

How the data were processed

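Per the labels, total RNA of each muscle was extracted with TRIzol and RNeasy and read as biotinylated cRNA on 1 Affymetrix array per mouse. The deposited values are linear signal intensity for 45101 probe sets. Their algorithm was not stated in the labels or the table; after trimming 2% of probe sets at both ends, every array averaged 100.00, so the authors had deposited scaled values. Values were taken as log2(signal + 16), with no further normalization. A filter removed probe sets whose mean log2 value lay under the 40th percentile, a signal of 13.9. The brightest probe set with 1 symbol stood for its gene. The test was that of limma 3.58.1 (in R 4.3.3), two-sided, with an intensity trend and no block. Every adjusted p is limma's, by Benjamini-Hochberg over all 13113 genes.

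Members and gene lists were chosen with earlier results of these data known; the groups by position in the ribosome were formed with the values in view, as was the choice of other genes that the rule does not cover. The rule named called members, the 4 largest rises and falls, the 3 brightest and dimmest, the Mrps18 family, 5 known genes and 3 genes of smallest p per list. Signals of different probe sets are not compared as amounts of RNA. On 20 simulated data sets of 13113 genes 29.4% of the 2-fold changes and 81.7% of the 4-fold changes were called, and 4.24% of calls were false. The simulated noise was normal and independent for each gene and library. These shares therefore do not give the rate of false calls where a library differs across many genes at once. Alternatives were other scalings, pseudocounts, filters, probe set rules and priors, a replicate or Y-linked block, and libraries left out, the last also with the probe sets held.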

Additional observations from a re-analysis of the deposited data

How the results depend on the processing

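The 4 members that fell, beside 1.46% of all genes tested called lower, became 2 under median centring (1.14%), 1 without the intensity trend (0.602%), 9 with the replicate number as a block (3.38%), 17 with Y-linked transcripts as a block (4.65%) and 0 with 1 wild type library (0.0306%); leaving out each library gave 0 to 4 (0.200% to 2.08%). No member rose by limma in any of the 25 alternatives. The median of -0.43 ran from -0.53 to -0.32 with a library left out and was -0.27 with 1 wild type library. Same-numbered libraries correlated at 0.15, 0.068 and 0.301 in their deviations, and unlike-numbered libraries at -0.292 to 0.201. The numbers were not taken as pairs in the main fit, and whether they mark pairs was not tested. Among the genes that the rule named, directions reversed for 3 members and for Nrf1. Mrpl9 ran from -0.017 to 0.25 with a library left out, and Mrpl12 was at 0.054 with 1 wild type library. Mrps18c ran from -0.13 to 0.14 with a library left out, among them 0.005 and 0.027. With 1 wild type library Mrps18c was at 0.14. Nrf1 ran from -0.31 to 0.63 with a library left out. Other members changed sign too: 69 to 72 of 76 were negative with a library left out, against 73 with every library. The brightest probe set was chosen again in those fits, and for Nrf1 the 3 negative values (-0.31, -0.17 and -0.079) came from another probe set. With the probe sets held, an alternative chosen after seeing the data, Nrf1 stayed between 0.23 and 0.70 with a library left out. The counts and medians of the members were then the same, and the reversals of the 3 named members remained. Fewer libraries or the loss of the trend prior change the test by construction; the cause of the other shifts was not tested.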

Other observations

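Genes that copy and transcribe mitochondrial DNA, and so supply the RNA of the mitochondrial ribosome, had 0 of 12 called by limma, with 3 lower and 0 higher at an unadjusted p under 0.05 and a median log2 fold change of -0.20. Tefm, an elongation factor of mitochondrial transcription, read 298.5, 309.8 and 289.0 in wild type and 221.5, 197.0 and 236.7 in deficient muscle, without overlap, at -0.43 (adjusted p = 0.216). Top1mt was at -0.55 (adjusted p = 0.216) and Mterf2 at -0.45 (adjusted p = 0.235). Tfam, the factor that packs mitochondrial DNA and starts its transcription, overlapped between the groups, with a log2 fold change of 0.038 (adjusted p = 0.951).

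Regulators of mitochondrial biogenesis had 0 of 13 called by limma and a median of 0.071. Lower at an unadjusted p under 0.05 were 0 and higher 1, beside 9.49% and 9.39% of all genes tested. Yy1 read 376.1, 419.4 and 460.4 in wild type and 579.7, 635.9 and 681.1 in deficient muscle, without overlap, at 0.58 (SE 0.17, adjusted p = 0.107 by limma). Nrf1 was at 0.48 (adjusted p = 0.380), and at 0.23 to 0.70 with a library left out and its probe set held, and Pprc1 at 0.32 (adjusted p = 0.437). The coactivator gene Ppargc1a overlapped between the groups, at 137.9, 132.5 and 247.3 in wild type and 86.0, 177.5 and 324.0 in deficient muscle.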
